A study of Oreochromis niloticus with 9 samples.

Results

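Liver RNA of GIFT, a selectively bred strain of Nile tilapia, was compared between fish fed 0.2% apple peel powder (APP_A) and control fish fed no apple peel powder (C). The comparison uses 6 of the 9 liver libraries of the study, 3 for each of these diets, and the other 3 come from fish fed 0.8% (APP_H). Each library was made from RNA pooled from 5 fish of a single tank after 8 weeks of feeding, so the tank pool is the replicate (n = 3 per group), and differences between single fish cannot be seen. The groups had the same strain, tissue and feeding time, and the powder took the place of cellulose in the diet.

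The deposited table lists 37283 loci with FPKM values, the number of fragments a locus gained relative to its length and to the reads mapped in the library. Of these, the 17844 loci that reached an FPKM of 1 in 3 or more of the 6 libraries were tested. A locus under an FPKM of 1 throughout a group could pass this filter only through the other group. A gene symbol was given for 8269 of the tested loci, an Ensembl identifier alone for 1140, a clone name for 669 and several fused names for 166, while 7600 had no name. The table holds FPKM and no read counts, and the counting error of single values was not estimated. The log2 fold change (log2FC) is the mean of log2(FPKM + 1) in APP_A minus that in C, which understates the change of genes with low values. DE loci were those with a |log2FC| of 1 or more whose p, adjusted by the Benjamini-Hochberg method in limma, was under 0.05.

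The liver synthesises fatty acids and triglycerides, burns fatty acids in mitochondria and peroxisomes, stores glycogen, and secretes most plasma proteins. In many teleosts it also holds islands of exocrine pancreas. Apple peel is rich in polyphenols and fibre, and the question behind the 0.2% diet was how such a supplement changes lipid metabolism and inflammation in the liver.

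The FPKM values of the 6 libraries were on a like scale, with median-ratio size factors of 0.997 to 1.03. FPKM is already divided by the mapped reads, so this says nothing of sequencing depth. The Hepatocyte markers averaged 8.21 to 8.65 on the log2(FPKM + 1) scale in APP_A and 7.99 to 8.83 in C, with 45 of 50 loci tested. Exocrine pancreas markers, with 14 of 15 loci tested, averaged 8.13, 5.95 and 8.66 in APP_A, against 7.60, 8.46 and 8.17 in C, so APP_A2 held the least pancreatic RNA. The elastase gene ela3l had an FPKM of 50.0 in APP_A2 and of 295 to 768 in the other libraries. Erythrocyte markers averaged 3.27 to 4.72 in APP_A and 4.0 to 5.07 in C, and Lymphoid cell markers 1.61 to 2.65 and 2.28 to 2.61. None of the Endocrine pancreas or Vitellogenesis loci passed the filter. In such bulk samples fewer cells of a type and less RNA per cell cannot be told apart.

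In APP_A vs. C, limma called 38 DE loci, 0.213% of the loci tested, of which 10 were upregulated (0.056%) and 28 were downregulated (0.157%). None of the 8269 genes with a symbol was among them. At an unadjusted p under 0.05, limma gave 350 genes with a symbol, 4.23% of those tested, with 193 higher (2.33%) and 157 lower (1.9%), and 67 of these genes (0.81%) also had a |log2FC| of at least 1. The lowest adjusted p of a gene with a symbol was 0.0749, for urm1. Of the 38 DE loci, 37 had no gene name, and the other carried only the identifier ENSONIG00000001711.

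The DE loci were short and were mostly listed at 0 throughout a group. Locus length here is the span on the scaffold with any introns, and not the exon length that FPKM uses. The median length of the DE loci was 201 bp, against 5072 bp for all loci tested. Of the 38 DE loci, 30 (78.9%) were under 300 bp, against 9.16% of all loci tested. All 3 APP_A libraries were listed at 0 for 26 of them, and all 3 C libraries for 9. These 35 loci passed the filter only through the group not listed at 0. A 0 in such a table can stand for an estimate that failed, and so these loci are described as listed at 0 and no fold is given. The locus XLOC_034363, which is 4579 bp long, had FPKM values of 154, 273 and 1105 in APP_A1 to APP_A3 and was listed at 0 in C. The locus XLOC_036321, which is 155 bp long, was listed at 0 in APP_A and had 3395, 710 and 439 in C.

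Only 3 DE loci had a value above 0 in both groups. XLOC_034879, of 686 bp, was upregulated, with an FPKM of 6.45, 5.86 and 6.18 in APP_A against 0.82, 0.25 and 0.66 in C (log2FC 2.201, SE 0.20, limma adjusted p = 0.0304). XLOC_035518, of 990 bp, was downregulated, with 1.39, 0 and 0.35 in APP_A against 32.2, 42.6 and 48.9 in C (log2FC -4.82, SE 0.38, limma adjusted p = 0.0197). ENSONIG00000001711 was downregulated, with 0, 0 and 0.25 in APP_A against 4.24, 4.76 and 3.73 in C (log2FC -2.28, limma adjusted p = 0.0223). With any single library left out, the adjusted p of ENSONIG00000001711 was 0.0572 to 0.116 and that of XLOC_034879 was 0.0628 to 0.142, so neither call held in any of these 6 fits. That of XLOC_035518 was 0.0246 to 0.0936, and among these fits its call held only without APP_A1. With pseudocounts of 0.1 and 0.01 all 3 calls were lost, with a limma adjusted p of 0.0844 and 0.136 for XLOC_034879, 0.155 and 0.632 for XLOC_035518, and 0.132 and 0.632 for ENSONIG00000001711. With all 9 libraries in the fit the adjusted p was 0.152 for XLOC_034879, 0.9999 for XLOC_035518 and 0.00799 for ENSONIG00000001711.

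**Figure D1:**
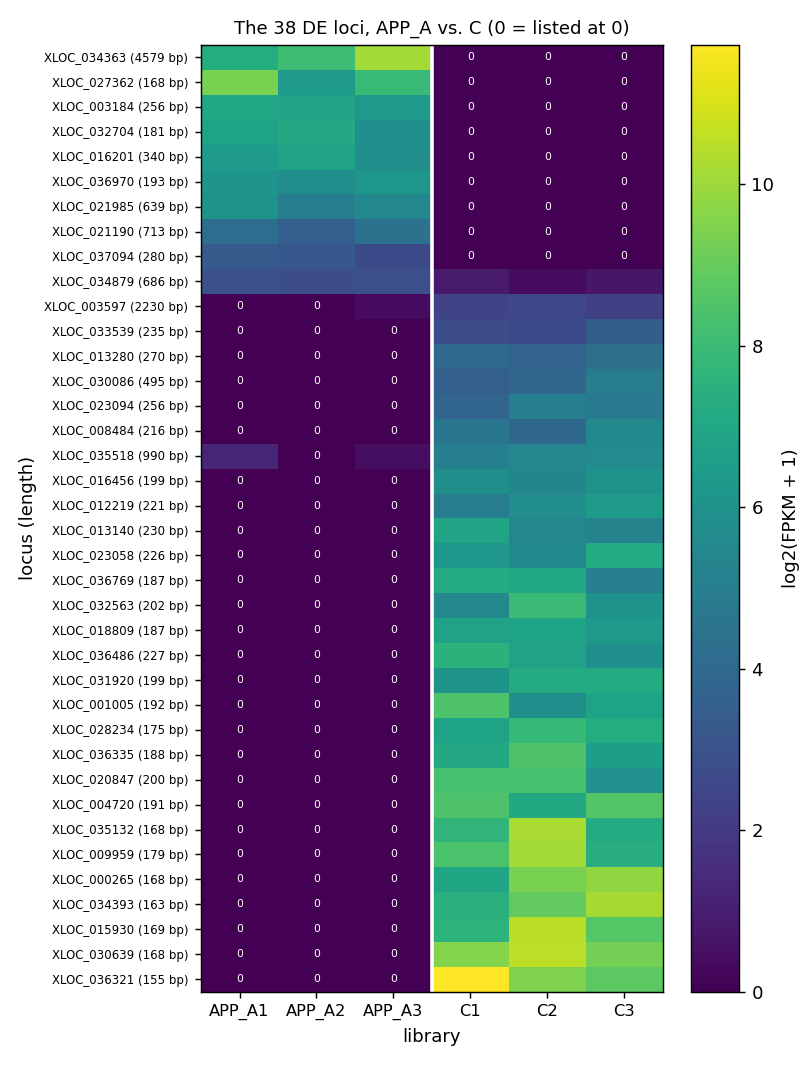
FPKM of the 38 DE loci (rows, with the locus length) in the 3 APP_A libraries (left) and the 3 C libraries (right), as log2(FPKM + 1), where a printed 0 marks a library listed at 0. In 26 rows all APP_A libraries are at 0 and in 9 rows all C libraries are.

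Values of 0 were frequent in short loci of every library. Of the 1635 tested loci under 300 bp, 26.5% to 27.2% were listed at 0 in an APP_A library and 21.0% to 24.5% in a C library, while in the 13171 tested loci of 1000 bp or more the share was 0.896% to 1.76%. Only 2 of the 13171 longer loci (0.0152%) were DE, against 30 of the 1635 shorter ones (1.83%). Across all tested loci the number of 0 values was 1014 to 1164 in APP_A libraries and 798 to 949 in C libraries, so every APP_A library held more of them. The 28 downregulated against 10 upregulated DE loci move with this difference, and its part in the split was not tested. Of the 35 DE loci with a group at 0, 21 were at 0 in some APP_H libraries and above 0 in others, 9 were above 0 in all 3 and 5 were at 0 in all 3. Restricted to the 14690 loci above 0 in all 6 libraries, a choice made after seeing the data, limma called 0 DE loci, with 988 at an unadjusted p under 0.05.

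The named genes are therefore described by their values in each library, and none of the differences below passed the adjusted test. With 3 libraries per group, the groups of a gene can also lie apart without any difference between diets, and that share was not computed. Groups that do not overlap, with every APP_A library above or below every C library, were found for 992 genes with a symbol, 12% of those tested (508 or 6.14% higher and 484 or 5.85% lower in APP_A). With a |log2FC| of at least 1 as well there were 68 such genes (0.822%), 37 higher (0.447%) and 31 lower (0.375%). The 15 genes with the lowest p in each direction, among those with a mean FPKM of at least 5 in a group, are described here.

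The gene with the lowest p was urm1, which encodes a ubiquitin-like protein that carries sulfur for the thiolation of transfer RNAs. It had FPKM values of 12.7, 9.28 and 8.94 in APP_A, against 1.88, 2.46 and 1.54 in C (log2FC 1.93, SE 0.22, limma adjusted p = 0.0749). The ratio of the group means was 5.26, and the groups lay far apart. Its adjusted p lay between 0.0560 and 0.472 over the alternatives, and no alternative brought it under 0.05.

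Other genes of the 15 with higher values are described next, and no function shared by them was tested. The vesicle GTPase gene RAB31 had 42.3, 51.1 and 53.8 in APP_A, against 17.4, 24.0 and 18.4 in C (log2FC 1.26, SE 0.24). The integrin subunit gene itga6a had 24.2, 24.7 and 21.4 in APP_A, against 4.8, 11.5 and 5.12 in C (log2FC 1.68, SE 0.35). A SLC29A2 locus, annotated as a nucleoside transporter with several copies, had 5.04, 7.33 and 5.20 in APP_A and 2.14, 2.62 and 1.88 in C. The APP_A libraries of these genes were close together and lay above all C libraries. MTSS1, which binds actin and membranes, had 17.5, 21.1 and 31.6 in APP_A, against 9.48, 11.3 and 8.95 in C. The methionine adenosyltransferase gene mat2ab, which makes the methyl donor S-adenosylmethionine, had 59.9, 79.0 and 74.7 in APP_A, against 45.2, 27.2 and 32.7 in C (log2FC 1.02, SE 0.29). The 15 genes also held pdcb, a phosducin gene listed at 0 in 2 C libraries.

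Among the genes with lower values in APP_A, coq7 had the lowest p. It encodes a hydroxylase of ubiquinone synthesis, and it had 2.51, 1.82 and 2.34 in APP_A, against 8.39, 9.63 and 6.48 in C (log2FC -1.50, SE 0.21, limma adjusted p = 0.119). UQCRHL, annotated as a subunit of respiratory complex III, had 47.1, 62.3 and 24.2 in APP_A, against 112, 121 and 151 in C (log2FC -1.59, SE 0.41). Both genes act in the mitochondrial electron chain or in the synthesis of its carrier, and separate groups were a condition for naming them. The list of Oxidative phosphorylation subunits as a whole did not share their lower values, with 47 of 81 loci higher in APP_A and a median log2FC of 0.03. Within it cox6b1, a subunit of complex IV, had 673, 173 and 640 in APP_A, against 77.9, 162 and 127 in C, where APP_A2 lay close to C2.

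The G protein subunit gene GNG10 had 6.87, 17.7 and 2.1 in APP_A, against 72.0, 87.1 and 38.7 in C (log2FC -3.04, SE 0.72). The histone deacetylase gene hdac9b was listed at 0 in APP_A and had 1.92, 11.4 and 15.3 in C, and without C1 it alone of the genes with a symbol had a limma adjusted p under 0.05 (0.0188). Without APP_A1 the same held for rpz5 (limma adjusted p = 0.0374), which had 3.33, 53.05 and 61.7 in APP_A against 2.02, 2.0 and 3.41 in C. The diacylglycerol kinase locus dgke (XLOC_015026), whose enzyme turns diacylglycerol into phosphatidic acid, had 43.7, 50.5 and 37.9 in APP_A, against 124, 141 and 68.3 in C (log2FC -1.26, SE 0.36). A second dgke locus (XLOC_015098) lay the other way, with 2.9, 3.65 and 4.37 in APP_A against 2.04, 2.17 and 1.81 in C, and reads shared by both loci could be split between them. The cytidine deaminase gene cda had 1.99, 1.64 and 1.83 in APP_A, against 10.3, 4.49 and 4.24 in C. The biliverdin reductase gene blvra had 5.52, 3.53 and 5.02 in APP_A, against 7.45, 11.1 and 16.95 in C. The remaining 8 genes of these 15 were ankrd22, nit1, tfcp2l1, lipg, dusp23a, pacsin3, a C3 locus and ap1m1, with a log2FC between -1.06 and -1.53.

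**Figure D2:**
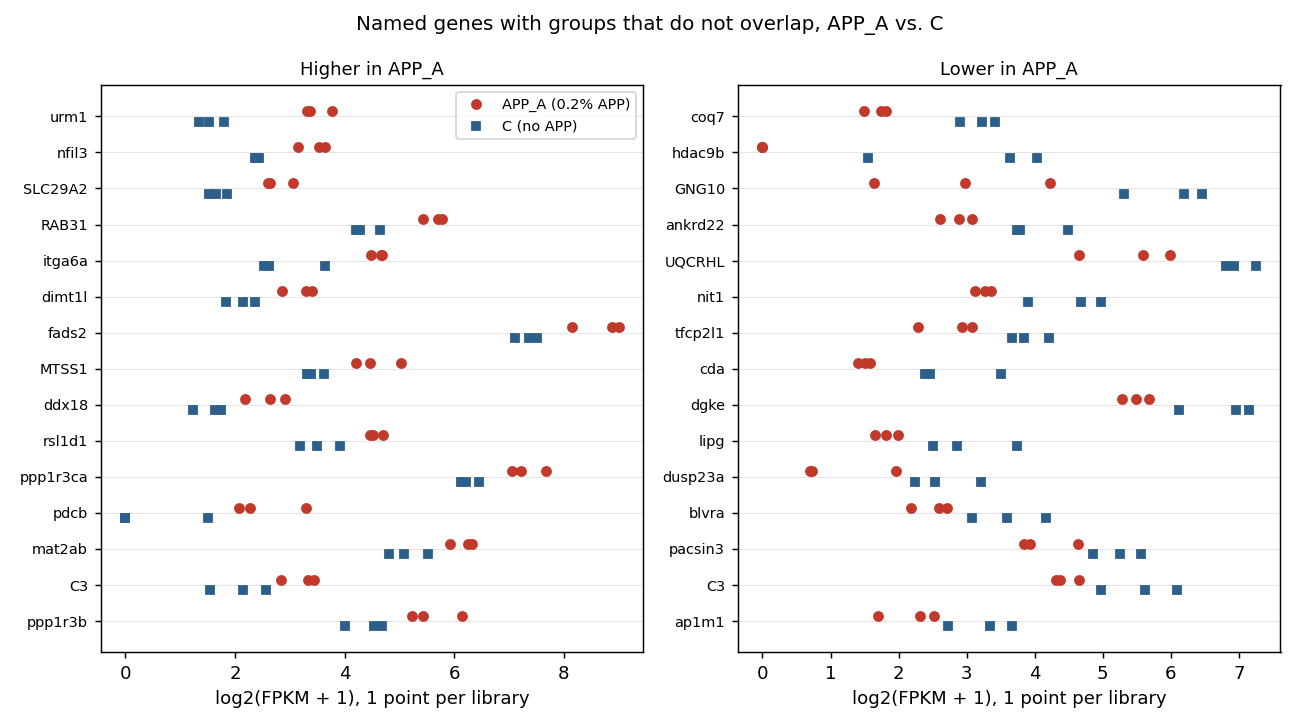
FPKM, as log2(FPKM + 1), of the 15 genes with a symbol with the lowest p that were higher in APP_A (left) and the 15 that were lower (right), with 1 point per library (circles APP_A, squares C). In each row the APP_A and C points do not overlap, which was a condition for showing the gene, and the widest gap among the higher genes is that of urm1 (12.7, 9.28 and 8.94 in APP_A, against 1.88, 2.46 and 1.54 in C).

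Ribosome biogenesis genes mostly had higher values in APP_A. These genes encode the nucleolar proteins that transcribe, cut, modify and fold ribosomal RNA and join it with ribosomal proteins. Their list was written after dimt1l, ddx18 and rsl1d1 had been seen among the 15 genes above, so its counts are a description. Of its 96 loci 93 were tested, and 84 of the 93 (90.3%) were higher in APP_A, against 49.8% of all genes with a symbol. The median log2FC was 0.42, against -0.0015 for all genes with a symbol. The groups did not overlap for 34 of the loci (36.6%), with 33 higher and 1 lower, against 6.14% higher and 5.85% lower of all genes with a symbol. At an unadjusted p under 0.05, 26 loci were higher and 1 lower, against 2.33% and 1.9% of all genes with a symbol. Without the 3 genes that led to the list, 81 of 90 loci were higher, with a median of 0.40. None of the 93 had an adjusted p under 0.05.

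The members came from each step of the process. The dimethyltransferase gene dimt1l, whose enzyme methylates 18S ribosomal RNA, had 6.27, 9.52 and 8.76 in APP_A, against 3.43, 4.13 and 2.57 in C (log2FC 1.07, SE 0.24). The nucleolar helicase gene ddx18 had 3.56, 5.24 and 6.56 in APP_A, against 2.09, 1.35 and 2.35 in C (log2FC 1.05, SE 0.26). The gene rsl1d1, which encodes a nucleolar protein of this pathway, had 20.9, 21.8 and 25.1 in APP_A, against 14.0, 10.3 and 8.15 in C. The dyskerin gene dkc1, the pseudouridine synthase of H/ACA particles, had 19.8, 21.95 and 29.0 in APP_A, against 11.3, 11.8 and 11.8 in C (log2FC 0.94, SE 0.22). In each of these 4 genes the lowest APP_A library was above the highest C library. The C/D particle gene nop58 had 7.21, 6.47 and 10.2 in APP_A, against 2.71, 4.09 and 3.84 in C. The U3 particle gene rrp9 had 4.10, 3.21 and 2.96 in APP_A, against 1.58, 1.40 and 0.83 in C. The RNA polymerase I subunit gene polr1b had 1.40, 1.31 and 2.25 in APP_A, against 0.70, 0.61 and 0.54 in C, and passed the filter only through APP_A. The nucleostemin gene gnl3 had 4.25, 4.12 and 7.03 in APP_A, against 1.83, 1.76 and 2.61 in C, and the nucleophosmin gene npm1a had 11.7, 14.3 and 15.7, against 7.82, 9.40 and 9.96. The groups of these 9 genes did not overlap, and their log2FC was 0.56 to 1.07.

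The abundant nucleolar genes differed less. Nucleolin (ncl) had 58.3, 69.3 and 65.8 in APP_A, against 74.2, 64.6 and 33.0 in C, and nop56 had 50.8, 59.0 and 52.4 in APP_A, against 54.5, 50.05 and 29.1 in C, so the groups of both genes overlapped. Lower values were found for npm1b, noc3l, nop16, pno1, myca, riok1, rsl24d1, xpo1a and ddx21. Of these only npm1b had groups that did not overlap, with 1.42, 1.36 and 3.08 in APP_A against 3.54, 3.30 and 5.23 in C.

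By library, the mean of log2(FPKM + 1) over the 93 loci was 2.73, 3.02 and 3.14 in APP_A, against 2.64, 2.54 and 2.47 in C, so APP_A1 lay nearest to C. The same loci averaged 2.91, 2.52 and 2.30 in the 3 APP_H libraries. With each library left out in turn the median log2FC was 0.33 to 0.52 and 78 to 86 loci were higher, and under median-ratio scaling and quantile normalization the median was 0.44 and 0.49. Exocrine pancreas markers averaged 8.13, 5.95 and 8.66 in the same APP_A libraries, and the part of other cell types in these values was not tested. The cytosolic ribosomal proteins themselves did not show the pattern, with 25 of 72 loci higher and a median of -0.04. Mitochondrial ribosomal proteins had 47 of 68 loci higher (median 0.13) and aminoacyl-tRNA synthetases 16 of 31 (median 0.0041), both lists written at the same time as the Ribosome biogenesis list.

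**Figure D3:**
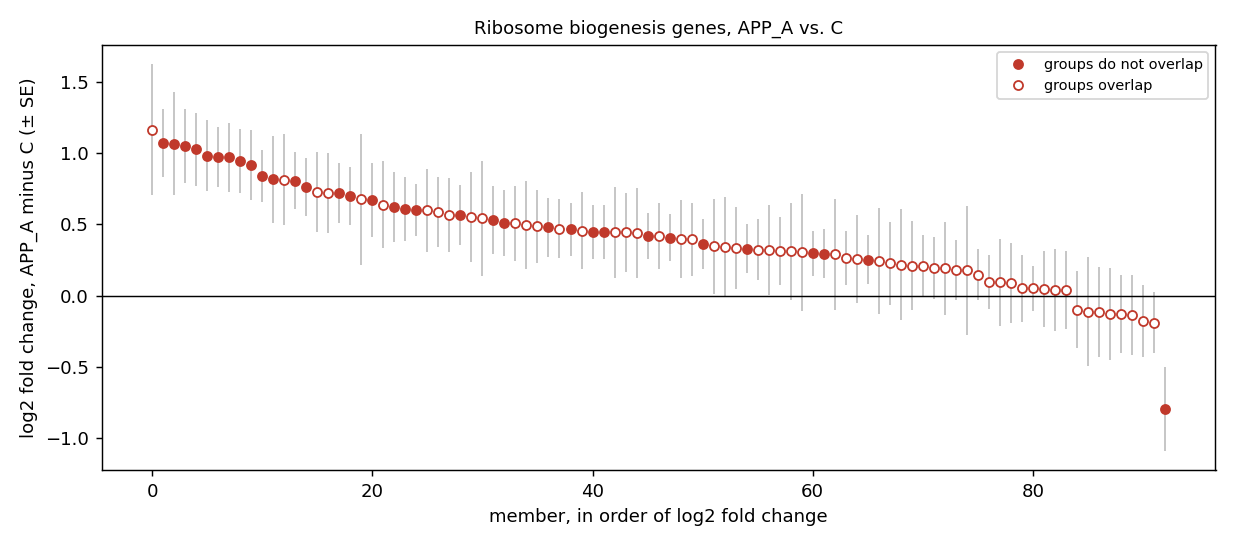
Log2FC (APP_A minus C, error bars ± SE) of the 93 tested Ribosome biogenesis loci in order of size, with filled points where the APP_A and C libraries do not overlap and open points where they do. The points lie above 0 for 84 loci and below for 9, and 33 of the 34 filled points are above 0.

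Lipid metabolism was described gene by gene, since it was a main subject of the feeding trial. Of the 21 tested loci of Fatty acid synthesis and its regulators (22 in the table), 15 were higher in APP_A, with a median log2FC of 0.24, and 3 were higher and 0 lower at an unadjusted p under 0.05 in limma, against 2.33% and 1.9% of all genes with a symbol. The lipogenic regulator thrsp had 930, 507 and 288 in APP_A, against 92.4, 110 and 258 in C (log2FC 1.89, SE 0.60), where APP_A3 and C3 were close. The acetyl-CoA carboxylase gene acaca, whose enzyme commits acetyl-CoA to fatty acid synthesis, had 4.24, 6.5 and 3.25 in APP_A, against 3.08, 1.22 and 1.48 in C (log2FC 0.96, SE 0.34). The acyl-CoA synthetase gene acsl4a had 5.93, 5.26 and 4.41 in APP_A, against 2.53, 1.92 and 2.83 in C (log2FC 0.86, SE 0.19). All 3 genes had groups that did not overlap. The acetyl-CoA synthetase gene acss2 lay the other way, with 1.54, 1.18 and 1.28 in APP_A and 1.79, 1.96 and 2.17 in C. The groups of the other tested loci of this list overlapped. Among them were fasn (log2FC 0.47, SE 0.52), scd (0.48, SE 0.38), srebf1 (0.24, SE 0.28) and elovl6 (1.32, SE 0.74). With each library left out, 13 to 15 of the 21 loci were higher.

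The desaturase gene fads2, which places a double bond in long-chain polyunsaturated fatty acids, is listed as 2 neighbouring loci on the same scaffold. XLOC_004890 had 470, 511 and 283 in APP_A, against 164, 181 and 136 in C (log2FC 1.35, SE 0.33, limma adjusted p = 0.519). XLOC_004889 had 172, 88.0 and 60.55 in APP_A, against 73.8, 85.1 and 39.1 in C (log2FC 0.63, SE 0.51, limma adjusted p = 0.906). The groups were apart for XLOC_004890 and overlapped for XLOC_004889, and reads shared by near-identical copies could be split between them. Of the 11 tested loci of Unsaturated fatty acid desaturation and elongation 8 were higher, but without APP_A2 this count was 5 and the median log2FC was -0.05, against 0.17 with all 6 libraries.

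In fatty acid beta-oxidation the groups did not overlap for 7.14% of the 42 tested loci, 3 lower and 0 higher. The share was 12% over all genes with a symbol. The genes ehhadh and cpt1aa were among these 3 loci. The peroxisomal enzyme gene ehhadh had 40.2, 30.7 and 39.9 in APP_A, against 76.2, 77.1 and 54.4 in C (log2FC -0.88, SE 0.27). The carnitine palmitoyltransferase gene cpt1aa, whose enzyme passes fatty acids into mitochondria, had 22.6, 14.7 and 21.4 in APP_A, against 29.9, 40.6 and 27.5 in C (log2FC -0.71, SE 0.28). Over the 42 tested loci of this list 15 were higher and 27 lower, with a median log2FC of -0.06, against -0.0015 for all genes with a symbol. Without APP_A1 or C2, 24 of the 42 loci were higher, and under quantile normalization the list median was 0.09, equal to the 0.09 of all genes with a symbol.

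In lipid uptake, storage and lipolysis, 17 of 27 tested loci were higher (median 0.22), and 15 to 18 were with a library left out. An ABHD5 locus, a coactivator of triglyceride lipase, had 13.5, 13.5 and 8.91 in APP_A, against 7.07, 6.32 and 4.16 in C (log2FC 0.92, SE 0.28). The lipid droplet gene cidec had 37.5, 57.9 and 54.7 in APP_A, against 36.2, 34.3 and 29.8 in C, and the adipogenic receptor gene pparg had 7.80, 8.25 and 7.58, against 6.59, 5.57 and 5.57. The endothelial lipase gene lipg had 2.97, 2.51 and 2.16 in APP_A, against 4.66, 12.4 and 6.24 in C (log2FC -1.22, SE 0.35). The groups did not overlap in any of these 4 genes. In phosphatidylcholine synthesis, pcyt1ab had 2.71, 4.83 and 3.66 in APP_A, against 2.16, 1.33 and 1.53 in C, and chkb had 14.4, 29.5 and 27.1, against 36.4, 59.5 and 143. Cholesterol synthesis had 15 of 23 loci higher and Bile acid synthesis and export 9 of 22, where amacr, an enzyme of bile acid side chain oxidation, had 5.83, 9.08 and 6.81 in APP_A, against 14.7, 15.5 and 14.8 in C (log2FC -0.98, SE 0.22).

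Among other lipid and growth genes named by the study, lpl and igf2 had groups that overlapped. So did the tested fatty acid binding protein loci, whose symbols the study does not use. The lipoprotein lipase gene lpl had 10.7, 43.1 and 20.4 in APP_A, against 19.1, 23.6 and 11.1 in C (log2FC 0.30, SE 0.57), and its log2FC was -0.20 without APP_A2. The liver fatty acid binding protein gene fabp10a had 10540, 12910 and 14493 in APP_A, against 19298, 9388 and 11155 in C (log2FC -0.01, SE 0.32). The growth factor gene igf2 had 11.4, 2.51 and 8.44 in APP_A, against 45.0, 13.2 and 3.91 in C (log2FC -0.99, SE 0.93). The fatty acid binding protein loci fabp1b.1, fabp3, fabp7a and fabp11a had a log2FC of 0.44, 0.33, -0.55 and -0.40 with standard errors of 0.34 to 0.41. Both fabp2 loci and tlr2 were below the filter, with an FPKM under 1 in each library. FABP2 is the symbol that the study uses for its liver-type fatty acid binding protein. The endoplasmic reticulum chaperone gene hsp90b1 had 51.6, 163 and 200 in APP_A, against 212, 56.0 and 180 in C (log2FC -0.12, SE 0.75), so its spread within each group was far larger than its difference.

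In carbohydrate metabolism, the genes of 2 glycogen-targeting subunits of protein phosphatase 1 had higher values in APP_A. These subunits bring the phosphatase to glycogen, where it activates glycogen synthase. The gene ppp1r3ca had 132, 204 and 148 in APP_A, against 86.9, 68.9 and 73.6 in C (log2FC 1.05, SE 0.28). The gene ppp1r3b had 36.6, 69.5 and 42.0 in APP_A, against 24.75, 22.1 and 15.03 in C (log2FC 1.19, SE 0.35). The glycogenin gene gyg2, which primes glycogen, had 6.37, 6.62 and 6.36 in APP_A, against 8.68, 11.4 and 10.4 in C, and the glycolytic gene pgam1a had 10.4, 11.7 and 11.8, against 21.4, 23.8 and 14.5. The other members of Glycolysis, gluconeogenesis and glycogen were spread around 0, with 24 of 56 tested loci higher and a median log2FC of -0.04, which was 0.06 under quantile normalization, where all genes with a symbol had a median of 0.09.

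The circadian clock list held the largest share of separated groups among the 27 pathway lists written first, at 10 of 30 tested loci (33.3%), 5 higher and 5 lower, against 12% of all genes with a symbol. The clock is a loop of transcription factors, in which NFIL3 represses and the related DBP and TEF activate the same DNA elements. The repressor gene nfil3 had 7.91, 10.6 and 11.5 in APP_A, against 4.39, 4.26 and 4.14 in C (log2FC 1.05, SE 0.20, limma adjusted p = 0.309). The related loci nfil3-5 and nfil3-6 had 2.78, 5.94 and 6.54 and 16.2, 23.5 and 20.5 in APP_A, against 1.44, 0.93 and 2.74 and 16.95, 11.6 and 11.3 in C. The activator gene tefb had 1.72, 1.64 and 2.21 in APP_A, against 4.62, 3.61 and 2.85 in C (log2FC -0.70, SE 0.21), and dbpb had 4.5, 4.43 and 3.15, against 5.69, 5.57 and 5.99. The groups did not overlap for nfil3, nfil3-5, tefb and dbpb, and they overlapped for nfil3-6. The nuclear receptor gene rorcb (XLOC_001544) had 6.93, 9.21 and 7.36 in APP_A, against 4.79, 3.69 and 5.07 in C, and rorca had 8.59, 9.06 and 13.1, against 7.78, 5.80 and 5.45. The core activator arntl1a had 2.5, 2.62 and 2.64 in APP_A, against 3.39, 2.69 and 2.86 in C. The groups did not overlap for these 3 loci, and a second rorcb locus (XLOC_001242) was listed at 0 in 3 of the libraries. The study weighed and bled fish at a set interval after the last meal, but the order and clock time of liver sampling in the single tanks are not given in the sources used here, and the part of sampling time in these values was not tested.

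**Figure D4:**
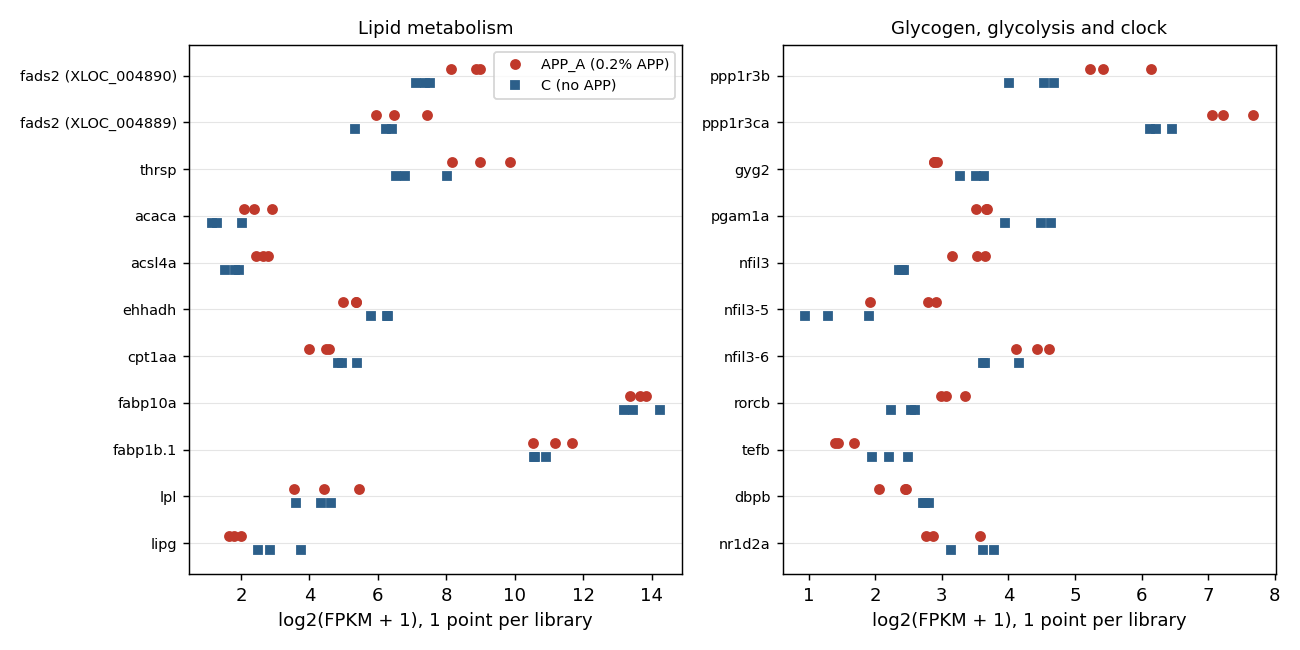
FPKM, as log2(FPKM + 1), of lipid metabolism genes (left) and of glycogen, glycolysis and clock genes (right), with 1 point per library (circles APP_A, squares C). The 2 groups of points are apart for fads2 (XLOC_004890), ppp1r3b, ppp1r3ca and nfil3, and they overlap for lpl, fabp10a and fabp1b.1.

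Genes of inflammation were mostly lower in APP_A by small amounts. Of 62 tested loci of Inflammation, Toll-like receptors and NF-kB, 22 were higher (35.5%) and 40 lower, while 49.8% of all genes with a symbol were higher. The median log2FC was -0.14, against -0.0015 for all genes with a symbol. The groups did not overlap for 8.06% of the loci, against 12% of all genes with a symbol. In limma 1 was past an unadjusted p of 0.05, against 4.23% of all genes with a symbol. That gene, the chemokine receptor ccr9a, had 7.64, 5.5 and 4.67 in APP_A, against 13.5, 13.85 and 10.4 in C (log2FC -0.98, SE 0.24). The NF-kB subunit genes NFKB1, nfkb2, rel and rela had a log2FC of -0.11, -0.15, -0.26 and -0.03 with standard errors of 0.21 to 0.45, and their groups overlapped. The T cell gene cd8a had 0.59, 0 and 0 in APP_A, against 2.72, 4.8 and 1.24 in C (log2FC -1.64, SE 0.41), and passed the filter only through C. Lymphoid cell markers, which include cd8a, were lower in APP_A for 11 of 14 tested loci, and their mean level was lowest in APP_A2, at 1.61. Whether fewer lymphoid cells accompany the value of cd8a was not tested.

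Interferon-induced antiviral genes were lower in APP_A for 30 of 32 loci, with a median log2FC of -0.39. This rested on C3. The antiviral gene rsad2 had 36.5, 10.2 and 2.68 in APP_A, against 20.5, 7.73 and 271 in C, and irf1b had 48.55, 28.1 and 23.3, against 32.6, 28.8 and 221. Without C3, 18 of the 32 loci were higher in APP_A and the median was 0.05, so the direction turned.

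Among liver secretory and heme genes, the transferrin gene tfa, a major plasma iron carrier, had 4949, 4328 and 6213 in APP_A, against 9130, 11222 and 8408 in C (log2FC -0.90, SE 0.23, limma adjusted p = 0.544). Other hepatocyte genes did not follow it, since 24 of 45 Hepatocyte loci were higher in APP_A. The heme oxygenase gene hmox2a had 25.0, 68.3 and 45.8 in APP_A, against 19.7, 20.1 and 15.8 in C (log2FC 1.17, SE 0.41). The more abundant heme oxygenase locus HMOX1 had 292, 502 and 186 in APP_A, against 234, 221 and 225 in C (log2FC 0.41, SE 0.41). The groups of HMOX1 and of hmox1a overlapped. The gene blvra, whose enzyme acts on the product of heme oxygenase, had the lower values given above. Of the complement C3 loci, XLOC_017977 had 6.18, 9.12 and 9.79 in APP_A, against 4.89, 1.93 and 3.43 in C, and XLOC_017909 had 18.9, 24.2 and 19.6, against 48.3, 67.2 and 30.6. The 2 more abundant tested C3 loci, XLOC_017976 and XLOC_017980, had groups that overlapped. These loci are copies of a family, and reads could be split between them.

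Amino acid breakdown and urea cycle genes had lower values in APP_A for 43 of 61 loci (median -0.12). Under quantile normalization the median was 0.0067, still below the 0.09 to which that scaling moved the median of all genes with a symbol. The member with the second lowest p was mat2ab, given above with higher values in APP_A. Members with lower values were the glutaminase gene gls2b, with 4.85, 3.11 and 2.94 in APP_A against 6.09, 9.43 and 7.91 in C, and the tryptophan-degrading gene kmo, with 14.9, 22.5 and 19.6 against 37.7, 38.6 and 28.9. Endoplasmic reticulum chaperones and translocation had 48 of 67 loci higher (median 0.17), but this count was 32 without APP_A3 and 60 without APP_A1. Their sensor gene ern1 had 5.16, 6.77 and 6.73 in APP_A, against 4.62, 3.93 and 3.32 in C (log2FC 0.54, SE 0.20). Without APP_A3 the chaperone median was -0.0050. The lists of Complement, Coagulation and its inhibitors, Antioxidant and glutathione enzymes, Proteasome subunits, Cytosolic and mitochondrial heat shock proteins, and DNA replication and mitosis had medians between -0.04 and 0.08. The lists of Xenobiotic metabolism, Antigen processing, phagosome and lysosome, the Insulin-like growth factor and insulin axis, and Collagens and extracellular matrix had medians between -0.12 and -0.08. Under quantile normalization the Complement, Antioxidant and Oxidative phosphorylation medians were 0.17 to 0.19 and that of Xenobiotic metabolism was 0.02, against 0.09 for all genes with a symbol. In none of the 27 lists did a member pass the adjusted test.

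**Figure D5:**
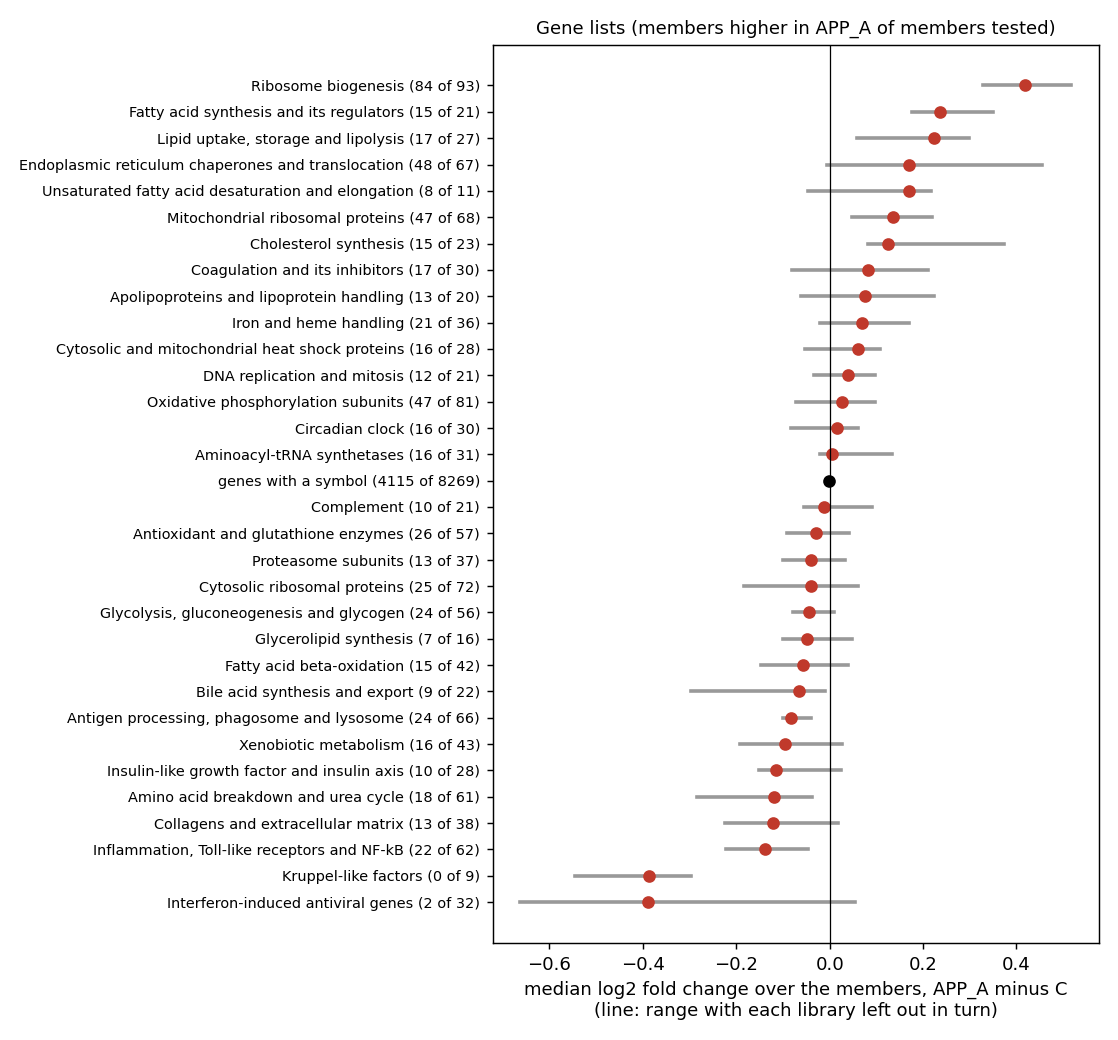
Median log2FC (APP_A minus C) over the tested members of each gene list (red points), with the range when each library is left out in turn (grey lines) and all genes with a symbol as the black point. The Ribosome biogenesis median is 0.42 with a range of 0.33 to 0.52, and the line of Interferon-induced antiviral genes runs from -0.66 to 0.05 and crosses 0.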

How the data were processed

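The authors pooled liver RNA of 5 fish per tank and sequenced mRNA libraries. Per the paper's methods they aligned reads with TopHat 2 and quantified loci with Cufflinks; the deposited values are FPKM. The submitters' processing notes name Bowtie 0.12.2, HISAT2 2.0, StringTie 1.3.0 and the mouse build mm8, which the tilapia scaffolds of the table contradict, and the build used is not given in the sources used here. The study gives read totals per library, but the depth behind single FPKM values was not estimated. Of the 6 libraries, APP_A3 had the lowest share of valid reads, the fewest mapped reads and the highest GC content. The part of this in the values of APP_A3 was not tested.

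Values were analysed as log2(FPKM + 1) with limma 3.58.1 in R 4.3.3, fitted to the 6 libraries without a block and with a prior variance that followed the intensity, over 17844 loci that reached an FPKM of 1 in 3 or more libraries. The fit was also run on simulated, normally distributed values with spreads shuffled between loci. These held no group listed at 0, so they do not test calls such as those of most DE loci. The groups come from the labels, where the powder is written APE, and p values measure the spread between tank pools.

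The members, lists and tests were chosen with earlier results of these data known. Named genes were the 15 with the lowest p in each direction among genes with a symbol, a |log2FC| of at least 1, separate groups and a mean FPKM of at least 5 in a group. The genes the paper names, the other fabp loci and up to 4 members of each list by lowest p were named as well. Other genes and loci were named after their values were seen. These were loci without a symbol, further loci of a symbol, rpz5, rsad2, irf1b, dbpb, rorca, arntl1a, nfil3-6, fasn, scd, srebf1 and elovl6. HMOX1, hmox1a and spi1b were among them as well. The Kruppel-like factors and the Ribosome biogenesis members other than dimt1l, ddx18 and rsl1d1 were also named in this way. The 27 pathway and 13 marker lists were matched by symbol, and 4 lists were added after the values were seen. Alternatives were pseudocounts, filters, median-ratio scaling, quantile normalization, all 9 libraries, a replicate block, no trend, array weights and each library left out. Figures were drawn with matplotlib 3.10.9 in Python 3.11.15.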

Additional observations from a re-analysis of the deposited data

How the results depend on the processing

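Against 38 DE loci, the count was 57 and 55 with pseudocounts of 0.1 and 0.01, 16 with no filter, 26 with all 9 libraries in the fit (17 of them shared), and 27 to 41 with each library left out, when 14 to 25 of the 38 remained. With the replicate number as a block limma called 0, with 950 loci at an unadjusted p under 0.05. Deviations from the group means correlated at r of -0.0077, 0.0427 and 0.0443 between same-numbered libraries. Between differently numbered libraries r was -0.0542 to 0.0123. The deviations within a group are not independent of each other, so these r cannot decide whether same-numbered libraries share more than a number. Among loci above 0 in all 6 libraries the counts were 0 DE loci, 369 at an unadjusted p under 0.05 with a |log2FC| of at least 1, and 301 without overlap, and among loci with a gene name they were 1, 131 and 105, against 38, 648 and 649 for all loci. These restrictions test fewer loci and were chosen after seeing the data. With an FPKM of at least 5 the last 2 counts were 358 and 390. With a library left out, 1064 to 1357 loci had groups without overlap, since fewer libraries are compared.

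Genes that changed sign were not only those with a log2FC near 0. With all 6 libraries it was -0.94 for ela3l and -0.91 for PLA2G1B. Under quantile normalization it was 0.073 for fabp10a, 0.10 for hsp90b1, 0.068 for rela and 0.030 for RPL27A, while that scaling moved the median of all genes with a symbol to 0.091, against -0.0015 before it. It was 0.016 for fabp10a under median-ratio scaling, which moved that median to 0.020, and with array weights 0.12 for hsp90b1. With each library left out it ranged from -0.23 to 0.29 for fabp10a, -0.71 to 0.48 for hsp90b1, -0.20 to 0.76 for lpl, -0.34 to 0.071 for NFKB1, -0.42 to 0.28 for nfkb2, -0.13 to 0.12 for rela, -0.013 to 0.56 for fgb, -0.35 to 0.011 for f13a1b, -1.67 to 0.028 for PLA2G1B, -1.77 to 0.19 for ela3l, -0.55 to 0.081 for gfi1b and -0.14 to 1.30 for Mb. The cause of the changes other than those with scaling was not tested. In all, 3337 values of single genes under the alternatives kept their direction and side of the threshold, 23 changed sign, and hdac9b passed the threshold without C1 (log2FC -3.83). Counts behind single values were not estimated, so the counting error of values near the filter is not given.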

Other observations

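The Kruppel-like factors, zinc finger transcription factors that act in metabolism and vessel walls, were picked after gene families had been looked through by their medians, and so their values are a description. All 9 tested loci of 20 in the table had a negative log2FC, with a median of -0.39. The klf2a gene had 3.82, 3.35 and 2.49 FPKM in APP_A, against 5.81, 5.52 and 6.06 in C (log2FC -0.70, SE 0.19, limma adjusted p = 0.577). A KLF11 locus (XLOC_013274) had 4.73, 4.79 and 4.52 in APP_A, against 5.79, 5.98 and 5.88 in C. The more abundant KLF11 locus XLOC_022593 had 23.75, 15.75 and 16.89 in APP_A, against 22.73, 27.85 and 23.18 in C, and its groups overlapped. The klf15 gene had 6.29, 13.4 and 12.5 in APP_A, against 21.2, 24.0 and 11.6 in C, and its groups overlapped. With each library left out, 0 to 2 of the 9 loci were higher in APP_A.

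The aminopeptidase locus ANPEP (XLOC_016836), a brush border enzyme, had 2.04, 1.54 and 1.57 FPKM in APP_A and was listed at 0 in C (limma adjusted p = 0.0861). It passed the filter only through APP_A. Of the 9 tested Intestinal epithelium loci, which include ANPEP, 5 were higher and 4 lower, with a median log2FC of 0.018. The transcription factor genes cebpa and spi1a lay in opposite directions. The cebpa gene, which acts in hepatocytes, adipocytes and myeloid cells, had 27.7, 20.0 and 35.5 in APP_A, against 16.8, 11.1 and 8.49 in C (log2FC 1.15, SE 0.35). The myeloid regulator spi1a had 6.34, 3.63 and 4.93, against 8.45, 9.07 and 7.54 (log2FC -0.67, SE 0.23). The related gene spi1b had 8.78, 3.65 and 5.18, against 7.98, 4.92 and 6.18, and its groups overlapped (log2FC -0.15, SE 0.34). Of the 27 tested Myeloid cell loci, which include these 3 genes, 10 were higher and 17 lower in APP_A.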
